A study of Mus musculus with 6 samples.

Results

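Transcripts of 9 marker genes of non-neuronal brain cells were examined for Ribo-STAMP edits in primary mouse cortical neurons, among 31053 listed genes. Of these genes, *Gfap*, *Aqp4*, *Slc1a2*, *Slc1a3*, *Aldh1l1* and *Apoe* mark astrocytes, *Mbp* marks oligodendrocytes, and *Cx3cr1* and *Csf1r* mark microglia. They were chosen by name, and all 9 symbols were found by matching the listed gene identifiers to GENCODE mouse release 21. The question was whether transcripts that name non-neuronal cells carry edits in a culture in which the editor was designed for neuronal expression. Ribo-STAMP fuses rAPOBEC1, an enzyme that deaminates cytidine to uridine in RNA, to a ribosomal protein. An mRNA bound by such a ribosome can therefore acquire C-to-U edits, which sequencing reads show as mismatches to the genome.

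Cortical cells were from WT C57BL/6J mouse embryos at embryonic day 18, and floxuridine was given at day in vitro (DIV) 3 to hold back cells that divide. All cultures were infected with adeno-associated virus at DIV 6, received Dox at 1 µg per ml for 48 h and were collected at DIV 14. The variants were RPL10A-STAMP and RPL22-STAMP, each a fusion to a large-subunit ribosomal protein, with 3 libraries of poly(A) RNA for each. A synapsin promoter drove the Dox-dependent transactivator in both, and no uninfected or RPS2-STAMP library was analysed here, so edits that arise without the fusion were not subtracted. The measured value was EPR, the number of edits on a gene divided by the reads of that gene. EPR is a ratio and not an RNA level. How many edits and reads each value rests on is not given, so a value of a gene with few reads may rest on a few edits. A 0 is listed both for unedited genes and for genes that had no reads. Each library was made from a whole culture, so the cell in which a transcript was edited was not measured, and fewer cells of a type and less RNA per cell cannot be told apart. The sources call the replicates biological in one place and technical in another, so p values describe the spread between these libraries. Edited here means an EPR above 0. Between 9892 and 11195 genes were edited per library. A total of 8046 genes were edited in every library, and their median EPR was between 0.00907 and 0.0161.

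Glial cells support and insulate neurons. Astrocytes clear glutamate from synapses, buffer water and ions at blood vessels and supply lipids. Oligodendrocytes wrap axons in myelin, and microglia are the resident immune cells of the brain. Synapsin is a protein of synaptic vesicles in neurons, and its promoter is widely used to restrict transgenes to neurons. Some marker names are not exclusive. *Slc1a2* mRNA is also found in some neurons, and the *Mbp* locus also gives rise to the golli transcripts, which neurons make. *Apoe* is made by astrocytes and microglia alike.

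Edits were present on the transcripts of 8 of the 9 genes. *Gfap*, *Aqp4*, *Slc1a2*, *Slc1a3*, *Apoe* and *Mbp* were edited in all 6 libraries, *Aldh1l1* in 4 and *Cx3cr1* in 2, and *Csf1r* was at 0 throughout. Of all listed genes, 25.9% were edited in all 6 libraries, 41.3% in at least 1 and 58.7% in none. The mean EPR of the 9 genes went from 0.0545 ± 0.0162 (s.d., n = 6) for *Aqp4* to 0 for *Csf1r*. Against each library's own median gene, *Aqp4*, *Slc1a2*, *Slc1a3* and *Gfap* were higher in 6 of 6 libraries. *Mbp* and *Aldh1l1* were lower in all 6, and *Apoe* was higher in 1.

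**Figure D1:**
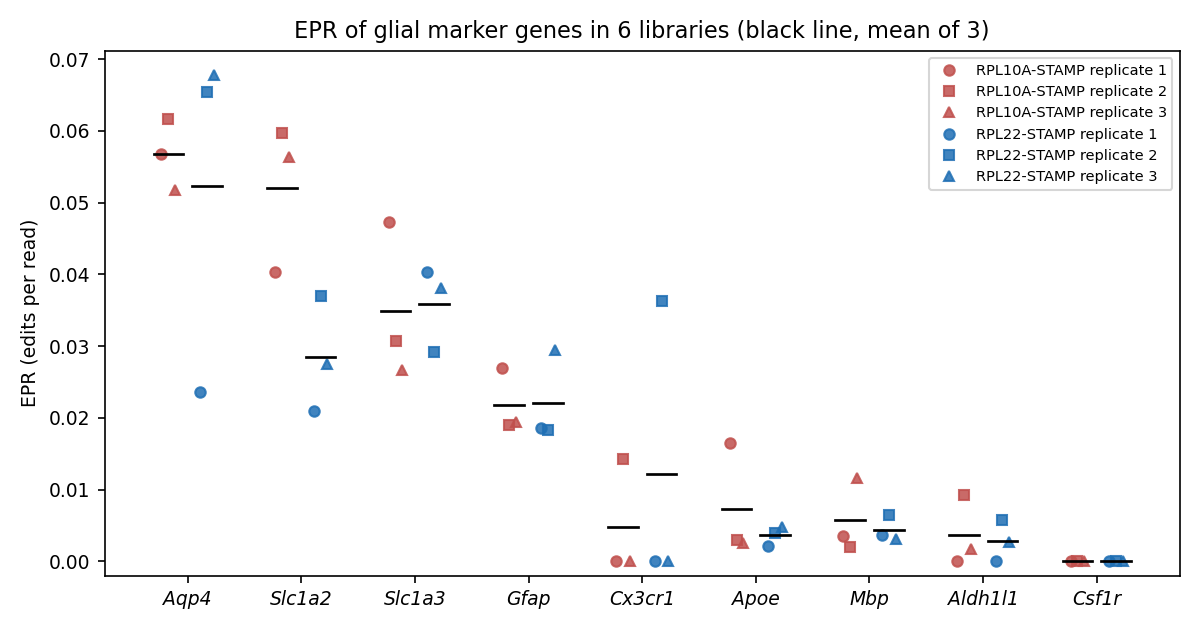
EPR (edits per read, linear axis) of the 9 marker genes in each library, with RPL10A-STAMP in red, RPL22-STAMP in blue, marker shapes for replicates 1 to 3 and a black line at the mean of 3 libraries. *Aqp4*, *Slc1a2*, *Slc1a3* and *Gfap* lie at or above 0.0183 in every library, and the libraries of the variants do not overlap for *Slc1a2* alone.

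Short stretches of the coding sequence are shown as examples, and they do not represent the whole mRNAs. rAPOBEC1 is known to prefer a cytidine that follows A or U. Each line below is the start of the longest coding exon of a gene in GRCm38, read along the mRNA, and capitals mark each cytidine that follows an A or a T of the genome sequence. The genes shown, all edited in all 6 libraries, are 3 above the median gene of each library and *Apoe*, which was below it in 5. Where edits lay within the genes was not analysed here.
*Slc1a3* (chr15:8645893-8645952, minus strand): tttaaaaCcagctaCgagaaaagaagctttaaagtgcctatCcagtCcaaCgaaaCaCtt
*Slc1a2* (chr2:102739689-102739748, plus strand): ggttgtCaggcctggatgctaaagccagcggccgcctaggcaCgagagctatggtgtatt
*Gfap* (chr11:102897058-102897117, minus strand): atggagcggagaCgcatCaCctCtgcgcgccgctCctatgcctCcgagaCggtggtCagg
*Apoe* (chr7:19697044-19697103, minus strand): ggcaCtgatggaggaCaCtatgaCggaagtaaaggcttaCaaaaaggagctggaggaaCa
Of the cytidines in these stretches, 7 of 14 followed A or T in *Slc1a3*, 2 of 14 in *Slc1a2*, 8 of 20 in *Gfap* and 6 of 9 in *Apoe*. The order of the genes was different over whole transcripts, where the share was 52.8%, 52.3%, 42.6% and 35.7% in the same order.

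*Aqp4* encodes the water channel of astrocyte endfeet (chr18:15389496-15410982, minus strand, GRCm38). Its EPR was 0.0568, 0.0617 and 0.0518 in RPL10A-STAMP replicates 1 to 3 and 0.0236, 0.0654 and 0.0678 in the same order for RPL22-STAMP. The first RPL22-STAMP library was the lowest and the other 2 were the highest, so the variants overlapped. In that lowest library *Aqp4* was still at 2.60 times the library's median gene, and in all 6 it ranked between the 88.3 and 96.6 percentiles of the edited genes.

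*Slc1a2* and *Slc1a3* encode the plasma membrane transporters with which astrocytes take up synaptic glutamate. The EPR of *Slc1a2* (chr2:102658659-102790784, plus strand) was 0.0403, 0.0597 and 0.0564 in RPL10A-STAMP replicates 1 to 3 and 0.0210, 0.0370 and 0.0275 in the same order for RPL22-STAMP. Every RPL10A-STAMP library was higher than every RPL22-STAMP library. The EPR of *Slc1a3* (chr15:8634124-8710764, minus strand) was 0.0473, 0.0307 and 0.0267 in RPL10A-STAMP replicates 1 to 3 and 0.0403, 0.0292 and 0.0381 in the same order for RPL22-STAMP. For this gene the first RPL10A-STAMP library was the highest and the third the lowest of the 6, with all RPL22-STAMP libraries between them. *Slc1a2* ranked between the 84.9 and 92.8 percentiles of the edited genes of a library, and *Slc1a3* between 73.3 and 95.1.

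*Gfap* encodes an intermediate filament protein of astrocytes (chr11:102887336-102900912, minus strand). Its EPR was 0.0269, 0.0191 and 0.0194 in RPL10A-STAMP replicates 1 to 3 and 0.0185, 0.0183 and 0.0294 in the same order for RPL22-STAMP. In each variant 1 library was high and 2 were lower and close together. *Gfap* was at 1.20 to 2.62 times the median gene of a library, between the 60.1 and 86.7 percentiles.

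*Apoe*, the lipid carrier that astrocytes secrete (chr7:19696109-19699188, minus strand), had low values. Its EPR was 0.0164, 0.00293 and 0.00260 in RPL10A-STAMP replicates 1 to 3 and 0.00209, 0.00397 and 0.00485 in the same order for RPL22-STAMP. The first RPL10A-STAMP library stood far above the other 5, which lay between the 2.01 and 15.1 percentiles of edited genes. The mean of RPL10A-STAMP, 0.00733 ± 0.00790 (s.d., n = 3), therefore has an s.d. larger than itself. *Aldh1l1*, an enzyme of folate metabolism (chr6:90486427-90600203, plus strand), was at 0, 0.00927 and 0.00172 in RPL10A-STAMP replicates 1 to 3 and at 0, 0.00579 and 0.00262 in the same order for RPL22-STAMP. It was at 0 in replicate 1 of both variants and below the median gene in the other 4 libraries. Of its exonic bases, 2.33% were shared with a gene on its own strand, *Gm45901*, and 11.1% with *Gm15756* on the other strand.

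*Mbp*, the myelin basic protein gene (chr18:82475146-82585637, plus strand), had an EPR of 0.00358, 0.00206 and 0.0116 in RPL10A-STAMP replicates 1 to 3 and 0.00360, 0.00646 and 0.00317 in the same order for RPL22-STAMP. The third RPL10A-STAMP library was the highest and the variants overlapped. *Mbp* lay between the 1.24 and 37.2 percentiles of edited genes.

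*Cx3cr1*, the fractalkine receptor of microglia (chr9:119901616-120069879, minus strand), was at 0, 0.0143 and 0 in RPL10A-STAMP replicates 1 to 3 and at 0, 0.0364 and 0 in the same order for RPL22-STAMP. Both libraries with a value were replicate 2 of their variant, at the 48.4 and 90.1 percentiles of edited genes. The reads behind these values are not given, so the percentiles may rest on a few edits. *Csf1r*, the receptor for the growth factors CSF1 and IL-34 (chr18:61100598-61132149, plus strand), was at 0 in all 6 libraries. Of its exonic bases, 15.1% were shared with *Hmgxb3* on the opposite strand.

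The order of mean EPR was *Aqp4*, *Slc1a2*, *Slc1a3*, *Gfap*, *Cx3cr1*, *Apoe*, *Mbp*, *Aldh1l1* and *Csf1r*. The means over 6 libraries were 0.0403 ± 0.0154 for *Slc1a2*, 0.0354 ± 0.00786 for *Slc1a3* and 0.0219 ± 0.00489 for *Gfap*. Those of *Cx3cr1*, *Apoe*, *Mbp* and *Aldh1l1* were 0.00844 ± 0.0148, 0.00548 ± 0.00546, 0.00508 ± 0.00352 and 0.00323 ± 0.00365 (s.d., n = 6). The place of *Cx3cr1* rests on 2 libraries. Each of the 8 pairs of neighbours was compared within libraries by a two-sided exact permutation of signs, whose smallest possible p is 0.0312 with 6 libraries. *Slc1a3* was higher than *Gfap* in 6 of 6 libraries (exact p = 0.0312, adjusted p = 0.25 over the 8 pairs), and *Aqp4* was higher than *Slc1a2* in 5 of 6 (exact p = 0.125, adjusted p = 0.25). *Slc1a2* was higher than *Slc1a3* in 3 of 6 and *Apoe* higher than *Mbp* in 3 of 6. With 6 libraries and 8 pairs, a single pair cannot reach an adjusted p of 0.05, so this test could not separate single neighbours. The difference between *Slc1a3* and *Gfap* was 0.0134 ± 0.00614 (s.d., n = 6), the other neighbours being higher in 2 to 5 of 6 libraries.

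The next comparison asked whether the fusion partner altered the editing of these genes. All libraries were scaled to a common median, and log2(EPR + 0.01) was fitted with limma for the 8046 genes edited in every library. Positive log2 fold changes are higher with RPL10A-STAMP. Of all genes tested, 14.3% passed an adjusted p of 0.05, 8.51% with RPL10A-STAMP higher and 5.77% with RPL22-STAMP higher. Of the 6 marker genes tested, none passed. *Aldh1l1*, *Cx3cr1* and *Csf1r* were not tested, because they were at 0 in at least 1 library.

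Of the 6, *Slc1a2* had the largest fold change in this fit. RPL10A-STAMP gave a mean EPR of 0.0521 ± 0.0104 and RPL22-STAMP one of 0.0285 ± 0.00809 (s.d., n = 3 each), a ratio of 1.83. After scaling, its log2 fold change was 0.40 ± 0.14 (s.e., 95% interval 0.07 to 0.72, limma adjusted p = 0.101). The exact permutation test gave p = 0.10, which is the smallest that 3 against 3 libraries allow. Non-overlapping libraries were common, at 34.4% of all genes tested, 28.2% with RPL10A-STAMP higher and 6.21% with RPL22-STAMP higher. Without scaling the log2 fold change of *Slc1a2* was 0.70 (limma adjusted p = 0.0906), whereas the median over all genes then was 0.18 in place of -0.01. The value was 0.24 once the trend of EPR with transcript GC content had been removed (limma adjusted p = 0.321), and the lowest of the 16 alternatives, with the trend with transcript length removed, gave 0.18 (limma adjusted p = 0.402).

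For the other 5 the intervals included 0. The log2 fold change was -0.35 ± 0.30 for *Slc1a3* (95% interval -1.05 to 0.36, limma adjusted p = 0.475) and -0.26 ± 0.23 for *Gfap* (-0.81 to 0.28, adjusted p = 0.482). *Aqp4* was at -0.11 ± 0.28 (-0.77 to 0.54, limma adjusted p = 0.817), and this sign turned without scaling (0.20). *Apoe* was at 0.19 ± 0.31 (-0.54 to 0.91, limma adjusted p = 0.723) and turned to -0.20 without the first RPL10A-STAMP library. *Mbp* was at -0.04 ± 0.19 (-0.48 to 0.41, limma adjusted p = 0.918) and also turned without scaling (0.09). Each of these intervals reaches at least 0.28 from 0 on both sides, so equal editing by the variants is not shown. By the exact permutation test on EPR, *Aldh1l1* gave p = 0.90 and *Cx3cr1* p = 1.0.

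**Figure D2:**
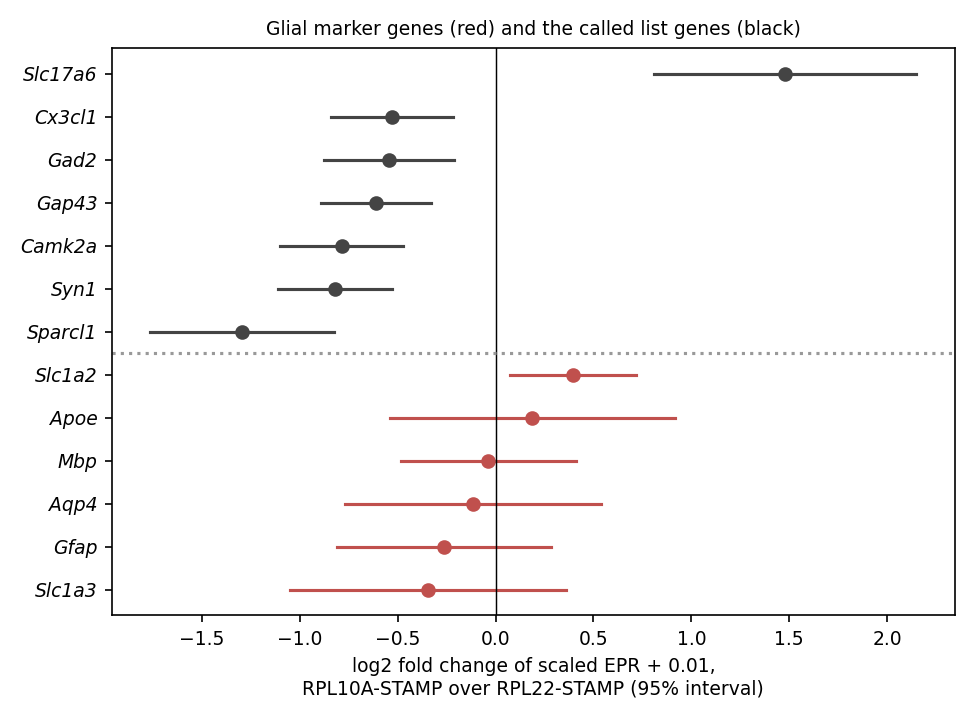
Log2 fold change of scaled EPR + 0.01, RPL10A-STAMP over RPL22-STAMP, with 95% intervals from limma. The 6 glial marker genes are in red below the dotted line and the genes of the marker and partner lists that passed an adjusted p of 0.05 are in dark grey above it. Only *Slc1a2* among the red points has an interval clear of 0, and its adjusted p was 0.101.

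To see whether the 9 genes resembled other markers of their cell types, lists of further markers were counted in the same way. Together with the 6 astrocyte genes above, 26 astrocyte genes were listed, of which 17 were edited in all 6 libraries (65.4%), 7 in some and 2, *Gjb6* and *Agt*, in none. Of 15 oligodendrocyte genes including *Mbp*, 3 were edited in all 6 libraries and 9 in none. Of 20 microglial genes including *Cx3cr1* and *Csf1r*, 1 was edited in all 6 libraries and 9 in none. All 22 neuronal marker genes were edited in every library. They were listed with earlier results of these data known and EPR is not an RNA level, so this count does not test the label of the cultures. Of 16 vascular and fibroblast genes, 15 were at 0 throughout. *Rgs5*, a pericyte gene named here after its values were seen, had 0.0182 in 1 library.

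**Figure D3:**
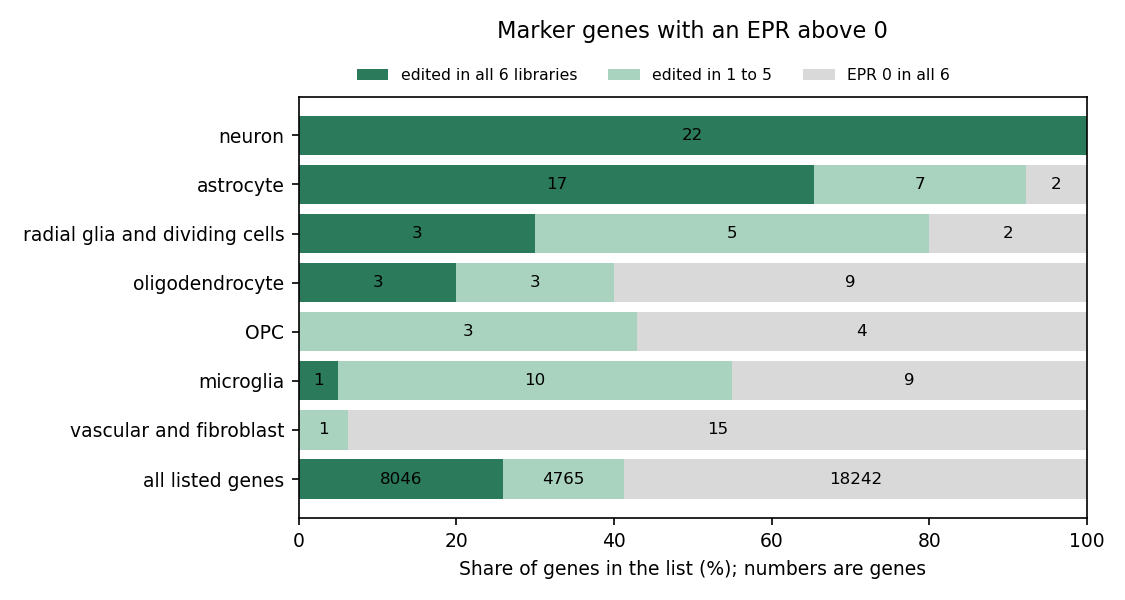
Share of the genes of each marker list (%) that were edited in all 6 libraries (dark green), in 1 to 5 (light green) or in none (grey), with the number of genes written in each bar. All 22 neuronal genes and 17 of 26 astrocyte genes were edited in all 6 libraries, against 1 of 20 microglial genes and 8046 of 31053 listed genes.

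Over genes edited in all libraries, the median of the mean EPR was 0.0354 for 5 of the 6 astrocyte genes above and 0.0191 for 12 of the 20 further ones. *Sparcl1*, a secreted glycoprotein also made by neurons, and *Gja1*, the gap junction protein of astrocytes, had the highest mean EPR of the list at 0.0531 and 0.0519. Over these 17 astrocyte genes together it was 0.0219, compared with 0.0180 for the 22 neuronal genes and 0.0135 for all genes edited in all 6 libraries. Of the 17, 12 were above the median gene, as were 14 of the 22 neuronal genes. Within libraries the astrocyte median was between 0.0185 and 0.0297 and the neuronal median between 0.0142 and 0.0193. The astrocyte median was the higher one in each of the 6. It leaves out the 9 astrocyte genes that were at 0 in at least 1 library, whereas no neuronal gene was left out. The most edited neuronal genes were *Camk2a*, a synaptic kinase, *Syt1*, a calcium sensor of vesicle release, and *Nefl*, a neurofilament subunit, at 0.0675, 0.0464 and 0.0449. *Aqp4* thus had a mean EPR between those of *Camk2a* and *Syt1*. Within libraries, *Camk2a* was higher than *Aqp4* in 4 of 6, and *Aqp4* was higher than *Syt1* in 4 of 6.

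**Figure D4:**
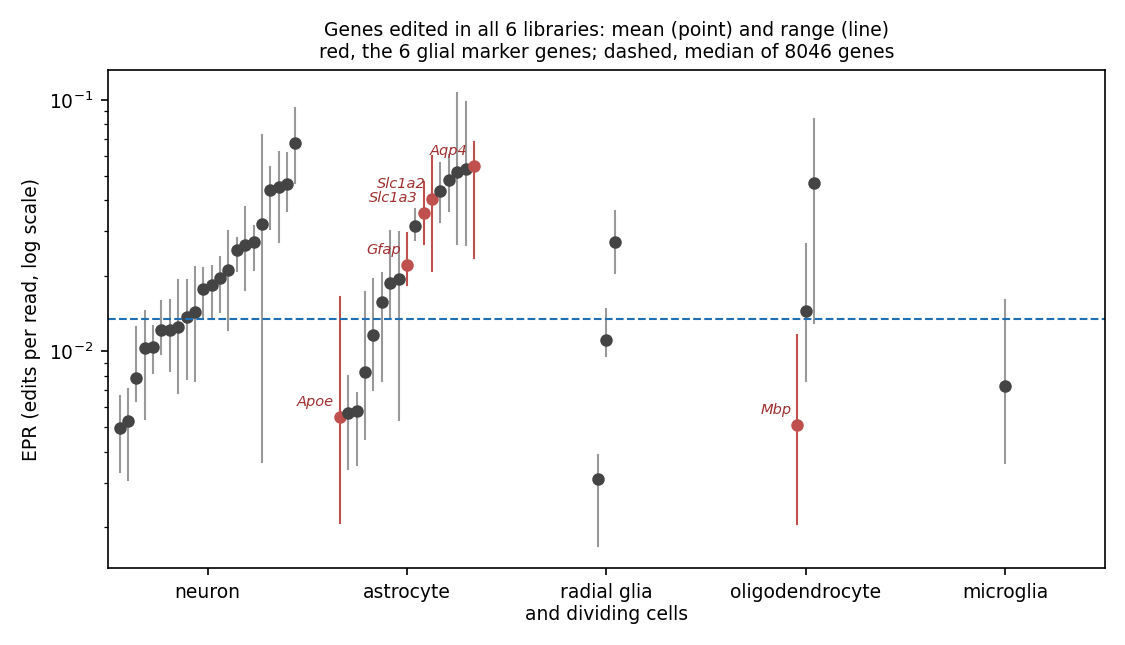
Mean EPR (points, log axis) and range over 6 libraries (lines) of the genes edited in all 6 libraries, by marker list, with the 6 glial marker genes in red and the median of the mean EPR of 8046 genes, 0.0135, as a dashed line. *Aqp4*, *Slc1a2*, *Slc1a3* and *Gfap* sit above the dashed line in the upper part of the neuronal range, and *Apoe* and *Mbp* sit below it.

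Among the astrocyte list 1 gene passed the test between the variants, and it was higher with RPL22-STAMP. *Sparcl1* was at 0.0266, 0.0348 and 0.0351 in RPL10A-STAMP replicates 1 to 3 and 0.0603, 0.0640 and 0.0981 in the same order for RPL22-STAMP. The libraries did not overlap, with a log2 fold change of -1.30 ± 0.20 (95% interval -1.76 to -0.83, limma adjusted p = 0.00878). Among the 22 neuronal genes, 5 passed (22.7%), against 14.3% of all genes tested. *Slc17a6*, a vesicular glutamate transporter, was higher with RPL10A-STAMP (log2 fold change 1.48 ± 0.28, limma adjusted p = 0.0185). *Syn1*, whose product is synapsin I, was higher with RPL22-STAMP (-0.82 ± 0.12, adjusted p = 0.00814), as were *Camk2a*, *Gap43* and *Gad2*. The call was lost in 3 of 16 alternative settings for *Syn1*, 5 for *Camk2a*, 6 for *Slc17a6*, 8 for *Gap43* and 12 for *Gad2*, whereas *Sparcl1* passed in all 16. The median log2 fold change was -0.08 over the 6 marker genes, -0.27 over the 12 tested genes of the further astrocyte list, -0.18 over the neuronal genes and -0.01 over all genes tested.

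Among the oligodendrocyte genes, edits were uneven. *Ugt8a*, which makes the myelin lipid galactosylceramide, was at 0.0723, 0.0839 and 0.0511 in RPL10A-STAMP replicates 1 to 3 and 0.0360, 0.0235 and 0.0130 in the same order for RPL22-STAMP. These libraries did not overlap, but the gene did not pass (log2 fold change 0.93 ± 0.36, limma adjusted p = 0.126). *Enpp2*, the lysophospholipase autotaxin, had a mean of 0.0144 ± 0.00746 (s.d., n = 6). The myelin genes *Mog*, *Mag*, *Mobp*, *Cldn11*, *Mal*, *Ermn*, *Opalin*, *Aspa* and *Myrf*, a transcription factor of myelination, were all at 0, and this was counted after their values were seen. *Cnp*, a myelin enzyme gene that some neurons also transcribe, was edited in 4 libraries. None of the 7 genes of oligodendrocyte precursors was edited in all 6 libraries. *Olig1*, a transcription factor of the lineage, was edited in 5 libraries, at up to 0.0437, *Olig2* in 4 and *Pdgfra* in 1.

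Of the 20 microglial genes, *Cx3cr1* and *Csf1r* included, between 2 and 8 were edited per library. The number was highest in replicate 2 of RPL22-STAMP, the library in which *Cx3cr1* had its higher value and in which the most genes of all were edited. *Laptm5*, a lysosomal membrane protein of immune cells named after its values were seen, was at 0.0476, 0.0213 and 0.0323 with RPL10A-STAMP and at 0 in all RPL22-STAMP libraries. This gene was not in the limma fit. With few reads a few edits can give such values, and the reads are not given. In the whole list of 20, 10 genes were edited in 1 to 5 libraries, and *C1qc*, a complement gene also named after its values were seen, was edited in 3, at up to 0.136. The other 9 were at 0 in every library, *Csf1r* and the defining genes *Aif1*, *Tmem119*, *P2ry12*, *Itgam*, *Trem2*, *Ptprc*, *Spi1* and *Irf8*. Markers of radial glia and dividing cells were edited in all libraries for *Vim*, a filament protein, *Fabp7*, a fatty acid carrier, and *Nes*, the filament protein nestin, with means of 0.0273, 0.0111 and 0.00310. Of the other 7 genes of this list, 5 were edited in 1 to 4 libraries and 2 in none.

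The partners of the marker genes include the ligands of the microglial receptors. *Cx3cl1*, the neuronal ligand of CX3CR1, was edited in all 6 libraries at 0.0140, 0.0174 and 0.0164 in RPL10A-STAMP replicates 1 to 3 and 0.0155, 0.0281 and 0.0223 in the same order for RPL22-STAMP. It was higher with RPL22-STAMP (log2 fold change -0.53 ± 0.13, limma adjusted p = 0.0402), although the libraries overlapped and the call was lost in 11 of 16 alternative settings (adjusted p 0.0309 to 0.409). The ligands of CSF1R were edited in 5 libraries for *Il34*, at up to 0.0120, and in 2 for *Csf1*, at up to 0.0124. Among the glutamate transporters, *Slc1a1*, the neuronal member of the family, had a mean EPR of 0.0238 ± 0.00778, and it was lower than *Slc1a2* in 6 of 6 libraries.

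Of the other partners, *Slc1a4*, a neutral amino acid transporter, was edited in all 6 libraries at a mean of 0.0161, and *Slc1a6*, a glutamate transporter of Purkinje cells, in 5. *Slc1a5* and *Slc1a7* were at 0. The receptors and handlers of APOE lipoproteins *Lrp1*, *Lrp8* and *Sorl1* and the lipid exporter *Abca1* were edited in all 6, with means of 0.0131, 0.0162, 0.0185 and 0.0170. Each of these means was higher than the mean of *Apoe* itself. *Dag1*, which encodes dystroglycan, a protein that helps to anchor AQP4 at endfeet, was edited in all 6 libraries at a mean of 0.0200. *Cx3cl1* was the 1 gene of the 9 tested partners that passed (11.1%, against 14.3% of all genes tested).

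The gene with the most similar scaled pattern over the 6 libraries is given for 5 marker genes, from the 8045 other genes tested, by the root mean square difference of log2 values. It was *Snf8*, a subunit of an endosomal sorting complex, for *Mbp* (0.11) and *Bsg*, a membrane glycoprotein, for *Gfap* (0.14). It was *Lypd6* for *Slc1a3* (0.18), *Alms1*, a centrosomal protein gene, for *Aqp4* (0.19) and *Ppp5c*, a protein phosphatase, for *Apoe* (0.20). The mean EPR of these neighbours was 0.00514, 0.0234, 0.0402, 0.0570 and 0.00452.

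The marker genes also differed in base composition, which the choice of genes did not use. The share of cytidines that follow A or U in the transcript with the longest coding sequence was 55.6% in *Aqp4*, 52.8% in *Slc1a3* and 52.3% in *Slc1a2*. It was 42.6% in *Gfap*, 40.6% in *Mbp* and 35.7% in *Apoe*, compared with a median of 47.2% over 8039 genes. In the genes at 0 in at least 1 library, it was 49.4% in *Cx3cr1*, 44.1% in *Aldh1l1* and 43.6% in *Csf1r*. The 3 most edited marker genes were thus the 3 with the highest share, and *Gfap*, with a share below the median, was edited above the median gene. Counted per kilobase, the order of these cytidines differed. There were 124.9 in *Slc1a3*, 119.8 in *Slc1a2*, 118.8 in *Mbp*, 116.5 in *Aqp4*, 115.9 in *Gfap* and 98.7 in *Apoe*. GC content ran from 41.4% in *Aqp4* to 59.5% in *Apoe*. Over the 8039 genes, which are not independent replicates and share the same 6 libraries, the Spearman rho between the share and mean EPR was 0.189. It was 0.315 for the RPL10A-STAMP mean and -0.0277 for the RPL22-STAMP mean, and with GC content these were -0.347 and 0.0208. For cytidines after A or U per kilobase, rho was 0.0253 with mean EPR. It was -0.00644 for the RPL10A-STAMP mean and 0.0811 for the RPL22-STAMP mean. The part of base composition in the levels of the marker genes was not tested.

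**Figure D5:**
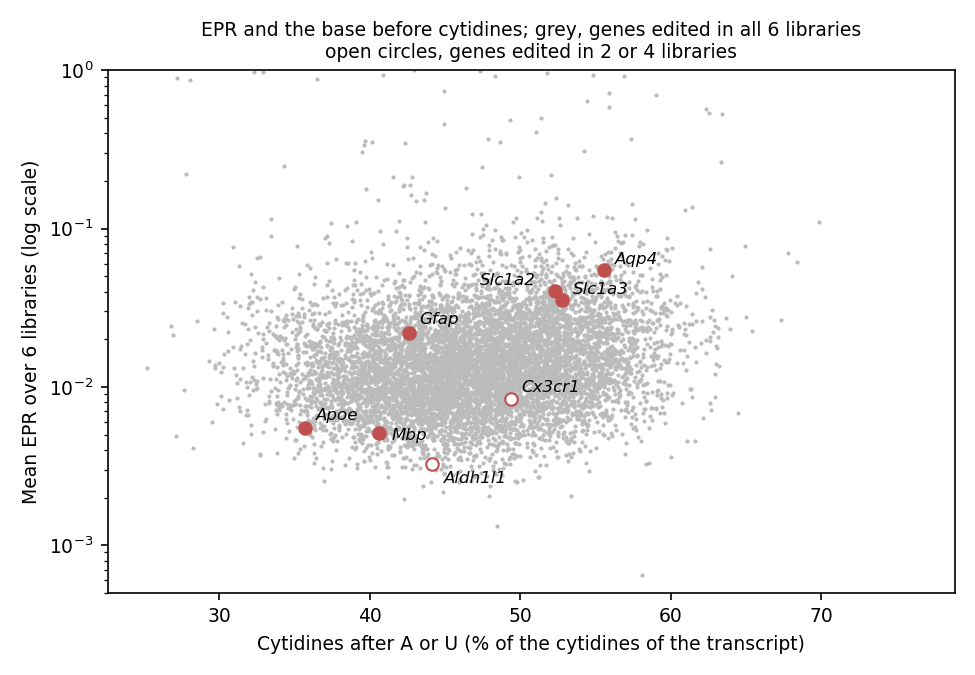
Mean EPR over 6 libraries (log axis) against the share of cytidines that follow A or U in the transcript (%), with genes edited in all 6 libraries in grey and the marker genes in red, open circles for *Aldh1l1* and *Cx3cr1*, which were at 0 in some libraries. *Csf1r* (EPR 0) and the 36 of 8039 genes with a mean EPR above 1 lie outside the axis. *Aqp4*, *Slc1a2*, *Slc1a3* and *Cx3cr1* lie to the right of the median share of 47.2%.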

How the data were processed

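Each library was 1 bulk poly(A) RNA-seq sample. Per the study's methods, the authors trimmed single-end reads, aligned them to mm10, used SAILOR to find C-to-U edits, and computed edits over reads per gene. The deposited values are this ratio (EPR), not normalized between libraries, and the gene annotation is not given in the sources used here. Edits and reads were not used here, so depth and counting error were not assessed.

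Libraries were grouped by their labels. For the test, EPR of the 8046 genes edited in every library was scaled so that all library medians equalled their geometric mean. limma 3.58.1 (R 4.3.3) was run on log2(EPR + 0.01) with a variance trend and Benjamini-Hochberg adjustment (threshold 0.05). The added 0.01 makes fold changes too small at low EPR. Single genes were compared by exact permutation over 20 labelings. Over the 8046 genes, deviations of same-numbered libraries were hardly correlated, so no pairing was used. Genes at 0 in some libraries were not part of that check. Exact copies of at least 50 bases, searched with BLAST 2.17.0, covered at most 2.83% of the transcript of any of the 9 genes. Transcripts and coordinates are from GENCODE mouse release 21 (31011 of 31053 identifiers matched) and sequences from GRCm38.

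The 9 genes and all lists were chosen with earlier results of these data known. The text names all 9 genes, the partners, from each list up to 3 genes with the highest mean EPR among those edited in all libraries and up to 2 that passed with the largest fold change, and the nearest gene by pattern, except for some genes that are not reported here. Any other gene was named with its values in view. Alternatives changed the pseudocount, scaling, filter, replicate number, GC content, transcript length, the minimum EPR and each library left out. Tables and figures were made in Python 3.11.15 (scipy 1.17.1, numpy 2.4.6, matplotlib 3.10.9 and pandas 2.3.3).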

Additional observations from a re-analysis of the deposited data

How the results depend on the processing

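None of the 6 tested marker genes passed under any of 16 alternatives (lowest adjusted p 0.0906, for *Slc1a2* without scaling), and *Slc1a2* and *Slc1a3* kept their sign in all 16. The number of genes called, 1149, was 754 with genes edited in at least 3 libraries, 569 with no filter, 603 with the replicate number as a block, 663 with the GC trend removed and 227 with both the GC trend removed and the replicate block, and 369 to 873 with a library left out, lowest without RPL10A-STAMP replicate 3. Calls were 59.6% higher with RPL10A-STAMP, and 88.1% without scaling. The sources used here do not say whether libraries with the same replicate number share a culture. Over the genes edited in every library, the correlations of deviations between same-numbered libraries were 0.0437, 0.0464 and -0.0055. These do not cover *Aldh1l1* and *Cx3cr1*, which were at 0 in some libraries, so shared traits of same-numbered cultures cannot be told for those genes. The block changed no call of a marker gene. With the GC trend removed, with or without the replicate block, *Gfap* turned to 0.0041 and *Mbp* to 0.26. *Mbp* also turned to 0.018 with the length trend removed. Without scaling, *Aqp4* turned to 0.195 and *Mbp* to 0.0881. With 1 library left out the log2 fold change ranged from -0.46 to -0.12 for *Gfap*, -0.42 to 0.0907 for *Aqp4*, 0.34 to 0.46 for *Slc1a2*, -0.63 to -0.15 for *Slc1a3*, -0.20 to 0.38 for *Apoe* and -0.22 to 0.12 for *Mbp*. The difference in EPR between the variants ranged from -0.00194 to 0.00269 for *Aldh1l1* (0.000862 with all) and from -0.0134 to 0.00476 for *Cx3cr1* (-0.00736 with all). Scaling these 2 differences to the library median was added after seeing the data and turned neither sign. *Sparcl1* passed in all 16 alternatives. The count of marker genes edited in all libraries was 6 with any library left out, and 4 when values under the library's 5th percentile counted as not edited. The precursor genes edited in all libraries numbered 0 to 1 with a library left out. The cause of these shifts was not tested.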

Other observations

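Of the 26 astrocyte genes, 4 were edited in exactly 4 libraries, *Aldh1l1*, *Fgfr3*, *S100b* and *Tril*, and all 4 were at 0 in replicate 1 of both variants. Of the 831 listed genes edited in exactly 4 libraries, 89 (10.7%) were at 0 in those libraries. This pattern was noticed after the values were seen and was not tested.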
